A study of Mus musculus with 24 samples.

Results

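Skin wounds of diabetic mice covered with a bandage carrying medium from M1 macrophages (CM1) were compared with wounds under a control bandage (Ctrl). The members were chosen by the group label alone, which gave 4 CM1 and 6 Ctrl libraries, 10 of the 24 in the series. All mice were male db/db animals, Lepr (db/db) on the C57BLKS/J strain, so the controls carried the same mutated leptin receptor and no lean mouse entered the comparison. Full-thickness punch wounds of 6 mm were made on the back when the mice were 16 weeks old. Alginate bandages were put on directly, plain in Ctrl and loaded with medium conditioned by M1-polarised primary macrophages in CM1. The bandage was renewed on day 3, and the wound tissue was taken on day 10, at 17.5 weeks. The remaining libraries came from wounds under medium of M0 (CM0, n = 4), M2a (CMA, n = 5) and M2c (CMC, n = 5) macrophages, and bandages with unconditioned medium were not analysed here, so medium and macrophage products cannot be told apart in the comparison with Ctrl.

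Macrophages take on different states in a wound. Cells in the M1 state release inflammatory cytokines and chemokines, whose receptors on other cells draw in neutrophils and monocytes and switch on genes through the transcription factor NF-kappa B. In db/db mice, which become obese and diabetic because they cannot sense leptin, wounds are known to close late and to keep inflammatory cells for long. The tissue itself holds epidermis, new dermis, vessels, immune cells and pieces of the skin beneath, so each library is a mixture. Fewer cells of a type and less RNA per cell cannot be told apart in such bulk RNA.

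The 10 libraries held 7267879 to 11985292 counts in Ctrl and 8746185 to 11958892 in CM1, and no pair of libraries agreed within sampling noise. Defining genes of healing skin were abundant in each. Col1a1, a chain of the main dermal collagen, lay between 20612 and 40273 CPM (counts scaled for library size) over the 10 libraries, and Krt14, the keratin of basal epidermis, between 1365 and 4167. Wounds differed within a group in the tissue they held, chiefly in hair follicle genes (Ctrl 3 and Ctrl 4), skeletal muscle genes (Ctrl 2 and Ctrl 4) and inflammatory genes (CM1 3, Ctrl 1 and Ctrl 6). Those values are given beside each result they touch.

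Of 18978 genes tested, none (0, or 0%) reached an adjusted p under 0.05 in the quasi-likelihood test of edgeR, and the smallest adjusted p was 0.695. At an unadjusted p under 0.05 there were 1337 genes (7.04%), 639 with the higher mean in CM1 (3.37%) and 698 with the lower (3.68%). DESeq2 was run without the expression filter and gave an adjusted p for 38663 genes. It called 1 of them and had 1605 at an unadjusted p under 0.05, a count over that larger total. Over the same 18978 genes as edgeR, limma with sample quality weights called 0 and had 1391. The libraries did not overlap for 86 genes with all CM1 above all Ctrl (0.453%) and 123 genes with all CM1 below (0.648%). Among genes averaging at least 1 CPM, 84.2% had a 95% interval of the fold change wholly within 2-fold either way. The genes below are therefore described by their values in single libraries; none of them passed the adjusted test of edgeR.

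**Figure D1:**
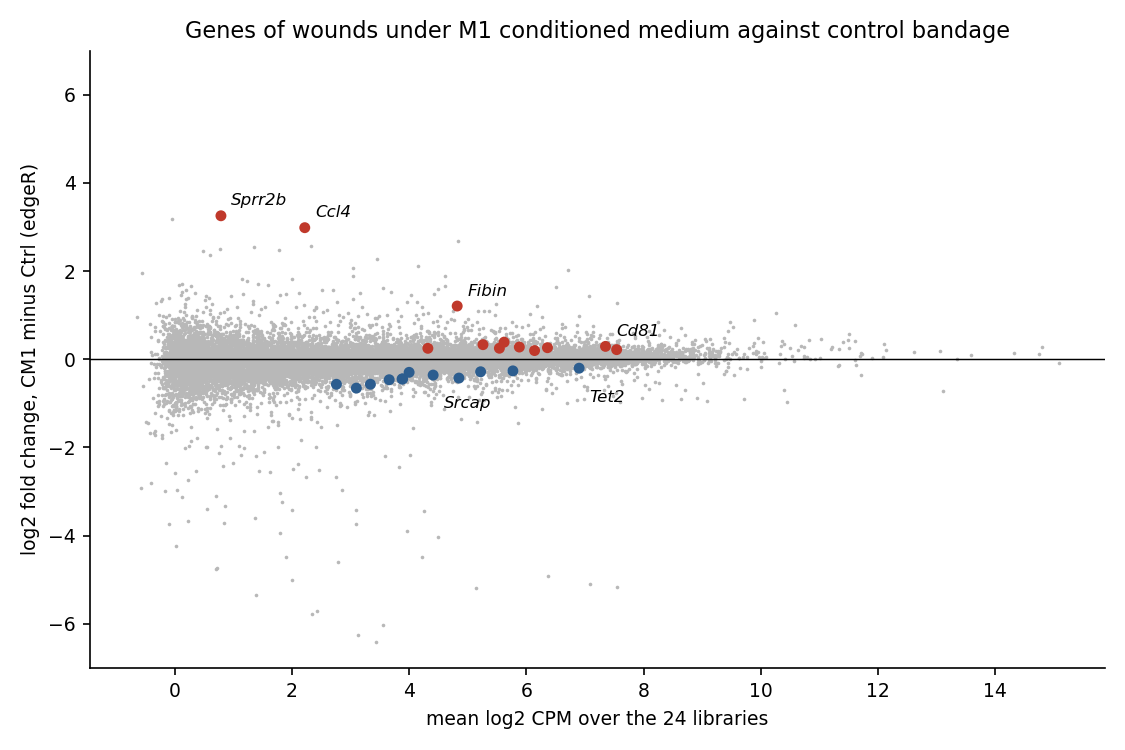
Each point is a gene, placed by its mean log2 CPM over the 24 libraries (x axis) and its log2 fold change, CM1 minus Ctrl, from edgeR (y axis). The 12 genes with the smallest p in each direction are red (higher) and blue (lower), and several are named. Most genes lie close to 0, and the grey points furthest below 0 include hair genes that were high in Ctrl 3.

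Fibin (ENSMUSG00000074971, chromosome 2, 110360917 to 110363183 on GRCm38), a gene for a small secreted protein named for its role in fin bud development, led the genes that were higher in CM1. It stood at 44.4, 25.7, 35.8 and 65.9 CPM in the CM1 libraries against 13.9 to 22.4 CPM in Ctrl (median 18.3). All 4 CM1 wounds lay above all 6 controls, and CM1 4 was the highest. The log2 fold change was 1.21 (SE 0.24, 95% interval 0.70 to 1.72), and it stayed between 0.93 and 1.39 when any 1 of the 10 libraries was left out. This was the gene that DESeq2 called, with a log2 fold change of 1.21 (SE 0.25) and an adjusted p = 0.049, and its edgeR adjusted p was 0.69.

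The other leading genes with higher values differed less and more evenly. Tmem176b (ENSMUSG00000029810, chromosome 6, 48833818 to 48841496), a membrane protein known from dendritic cells and macrophages, stood at 55.5, 51.3, 59 and 62.7 CPM in CM1 against 39.4 to 48.9 in Ctrl (median 42.9), with no overlap (log2 fold change 0.39, SE 0.09). Ift20, which carries cargo from the Golgi to the primary cilium, stood at 43.7, 37.4, 43.9 and 42.6 CPM against 31 to 36.1 (median 33.3), also without overlap (0.33, SE 0.08). Cd81, a tetraspanin found on many cell surfaces and on exosomes, stood at 163, 172, 179.8 and 193 CPM against 129 to 159 (median 142). In these 3 genes every CM1 wound exceeded every control wound, although the log2 fold changes were 0.29 to 0.39. Sept8, a septin of the cytoskeleton, Tsen34, a subunit of the tRNA splicing endonuclease, 2310011J03Rik and the Y-linked RNA helicase Ddx3y had log2 fold changes of 0.22 to 0.26 and likewise did not overlap.

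Sprr2b, a small proline-rich protein of the cornified envelope, had the largest fold among the leading genes but a low level. It stood at 4.1, 2.63, 3.53 and 2.02 CPM in CM1 and between 0 and 0.606 CPM in Ctrl (median 0.318), a log2 fold change of 3.26 (SE 0.86). Every CM1 library exceeded the controls. Sprr2 genes are close copies of each other, so reads may be shared among them. The leading genes were chosen by the smallest p of this same comparison, so separation of their libraries is partly built in. Of the 12 leading genes with higher values 10 did not overlap between the groups. The exceptions were Fam8a1, where Ctrl 1 reached 58.6 CPM, and the chemokine Ccl4, described with the inflammatory genes.

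**Figure D2:**
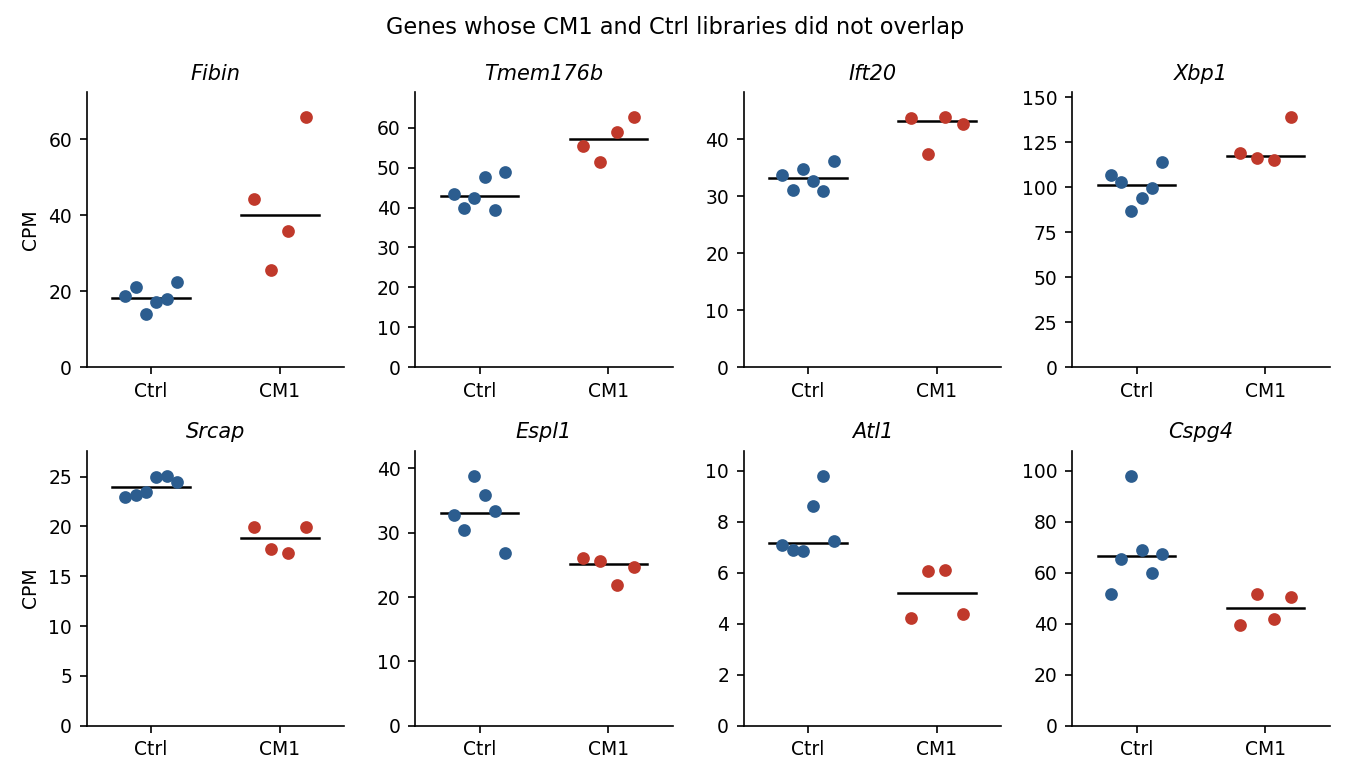
CPM (linear y axes from 0) of 8 genes in the 6 Ctrl (blue) and 4 CM1 (red) libraries; each point is a library and bars mark group medians. Fibin, Tmem176b, Ift20 and Xbp1 lie higher in every CM1 library, Srcap, Espl1, Atl1 and Cspg4 lower; for Cspg4 the gap is from 51.5 to 51.8 CPM.

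The 12 leading genes with lower values in CM1 included Srcap, Espl1, Ncapd3, Timeless, Sap30 and Tet2. Srcap (ENSMUSG00000053877, chromosome 7, 127511983 to 127561219), the ATPase of the complex that places histone H2A.Z into chromatin, stood at 19.9, 17.7, 17.3 and 19.9 CPM in CM1 against 22.9 to 25.1 in Ctrl (median 23.9). The groups were far apart relative to their narrow spread (log2 fold change -0.36, SE 0.08). Espl1 (ENSMUSG00000058290, chromosome 15, 102296266 to 102324357), the separase that cuts cohesin so that sister chromatids can part, stood at 26.1, 25.6, 21.9 and 24.7 CPM against 26.9 to 38.9 (median 33.1; -0.43, SE 0.10). Ncapd3, a condensin subunit that compacts chromosomes, stood at 35.3, 33.1, 30.4 and 35.6 CPM against 35.6 to 44.8 (median 41.5). Here CM1 4 met the lowest control at 35.6. Timeless, which protects replication forks, was lower in every CM1 library (10.1 to 15 CPM) than in every control (15.1 to 22.7 CPM), and its log2 fold change of -0.45 (SE 0.12) became -0.15 without Ctrl 3, Ctrl 4 and CM1 3. Sap30, a subunit of a histone deacetylase complex, and Tet2, which oxidises methylated cytosine in DNA, overlapped between the groups, with log2 fold changes of -0.65 (SE 0.17) and -0.20 (SE 0.06).

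Atl1, Dync2h1, Greb1l, Ddx55 and E130308A19Rik were also among these 12 genes. Atl1, a GTPase that fuses tubules of the endoplasmic reticulum, stood at 4.22, 6.08, 6.12 and 4.37 CPM in CM1 against 6.85 to 9.82 in Ctrl (median 7.16). Dync2h1, the motor for return transport in cilia, stood at 48.2, 50, 50.8 and 47.8 CPM against 56 to 61.6 (median 59.3). Neither overlapped, and Dync2h1 was nearly level within each group (log2 fold change -0.26, SE 0.07). Greb1l, needed for kidney and inner ear development, also did not overlap, at 6.83 to 9.23 CPM against 10.3 to 16.7. Ddx55, an RNA helicase, and E130308A19Rik overlapped. In all, 6 of the 12 leading genes with lower values did not overlap. The log2 fold changes of all 12, overlapping or not, lay between -0.20 and -0.65. These genes too were chosen by their p in this comparison.

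Cell division genes as a group pointed down. Of 27 tested genes of the cell cycle list 0 had the higher mean in CM1 and 7 had an unadjusted p under 0.05, with a median log2 fold change of -0.29. Over all tested genes 48.7% had the higher mean, 3.68% had such a p with the lower mean, and the median was -0.005. Kif23, a kinesin of the dividing cell's midbody, stood at 18.3, 18.8, 10.3 and 14.7 CPM in CM1 against 15.5 to 33.5 in Ctrl (median 22.3). Mki67, the standard marker of cycling cells, stood at 207, 228, 147 and 192 CPM against 179 to 439 (median 246). In both genes Ctrl 3 was the highest control and CM1 3 the lowest of all 10 libraries, and the groups overlapped. The list's mean log2 CPM was 4.66, 4.65, 4.16 and 4.52 in CM1 and 4.38 to 5.31 in Ctrl, with Ctrl 3 at 5.31. The list's median was -0.17 without Ctrl 3 and -0.18 without CM1 3, and without Ctrl 3, Ctrl 4 and CM1 3 it was 0.01. Hair follicle genes, which mark a tissue with rapidly dividing matrix cells, were highest in Ctrl 3 as well, and their part in this result was not tested.

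**Figure D3:**
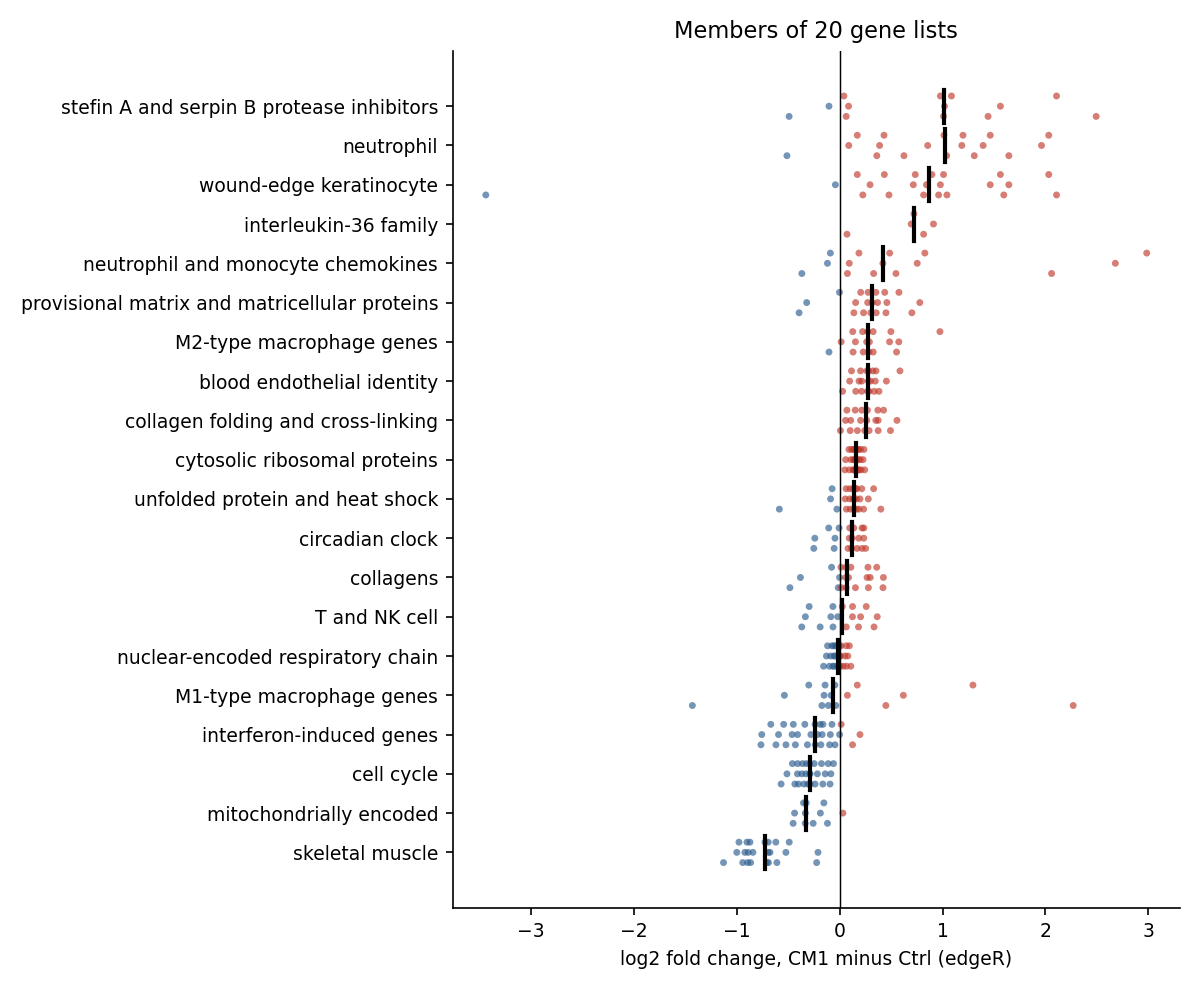
Each point is a tested member of 1 of 20 gene lists, placed by its log2 fold change, CM1 minus Ctrl, from edgeR (x axis); red is above 0, blue below, and black bars are list medians. Stefins and serpins, neutrophil, wound-edge and interleukin-36 genes have medians from 0.72 to 1.03, while cell cycle, mitochondrial and muscle genes have medians from -0.29 to -0.73.

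Genes that fold and export proteins lay slightly higher in CM1. The unfolded protein response raises chaperones of the endoplasmic reticulum when client proteins pile up there; Xbp1 is one of its transcription factors, and Hspa5, Manf, Pdia4, Pdia6 and Dnajc3 are among its targets. The promoters of Dnajc3 and Pdia6 are shown because each carries the published ER stress response element, CCAAT and CCACG with 9 bases of any kind between them, which a search of both strands found in 37 of 27025 genes (0.137%) and in 6 of the 22 genes of the unfolded protein and heat shock list that had a promoter window. The windows run from 250 bases before to 50 after the RefSeq start on GRCm38.p6, forward strand, with the element in capitals. They span chr14:118937682-118937981 for Dnajc3, where the element begins 105 bases before the start, and chr12:17266339-17266638 for Pdia6, where it begins 98 bases before. A match of letters is a description and not a tested site.
Dnajc3: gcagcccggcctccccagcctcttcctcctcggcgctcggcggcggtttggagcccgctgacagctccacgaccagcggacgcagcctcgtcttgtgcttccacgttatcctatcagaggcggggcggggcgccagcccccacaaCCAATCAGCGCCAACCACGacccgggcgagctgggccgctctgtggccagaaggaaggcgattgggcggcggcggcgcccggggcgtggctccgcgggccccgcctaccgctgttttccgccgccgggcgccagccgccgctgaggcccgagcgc
Pdia6: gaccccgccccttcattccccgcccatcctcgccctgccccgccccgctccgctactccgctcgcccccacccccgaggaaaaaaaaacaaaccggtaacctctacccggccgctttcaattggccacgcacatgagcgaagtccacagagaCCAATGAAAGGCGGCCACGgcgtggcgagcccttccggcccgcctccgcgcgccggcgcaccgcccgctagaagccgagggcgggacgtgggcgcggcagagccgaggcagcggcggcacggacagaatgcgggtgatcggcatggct

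Of 25 tested members of the unfolded protein and heat shock list 21 had the higher mean in CM1 and 5 had an unadjusted p under 0.05, all of them higher (median log2 fold change 0.14). The shares over all tested genes were 48.7% and 3.37%. Manf (ENSMUSG00000032575, chromosome 9, 106838312 to 106891979), a secreted factor released under endoplasmic reticulum stress, stood at 44.9, 33.6, 34.8 and 43.4 CPM in CM1 against 23.5 to 35.6 in Ctrl (median 29.6). All CM1 libraries lay above the control median, and the overlap came from Ctrl 6, the highest control (log2 fold change 0.40, SE 0.11). Xbp1 (ENSMUSG00000020484, chromosome 11, 5520659 to 5525893) stands on the plasma cell list and is not a member of this one. It had 119, 116, 115 and 139 CPM against 86.7 to 114 (median 101, log2 fold change 0.28, SE 0.09), without overlap. No tested member of the unfolded protein and heat shock list itself separated the groups. Pdia4, a disulfide isomerase, stood at 131, 123, 121 and 153 CPM against 92.7 to 137 (median 111). Dnajc3, a co-chaperone that also curbs the kinase PERK, stood at 122, 123, 126 and 139 CPM against 105 to 132 (median 111). Pdia6, another isomerase, named only after its values had been seen, stood at 158, 159, 131 and 187 CPM against 121 to 160.4 (median 139.7). For these last 3 genes 1 or more controls, always including Ctrl 6, lay within the CM1 range. Leaving out any 1 library kept the list's median between 0.10 and 0.15, and with 2 surrogate variables, which stand for shared variation among libraries, the unfolded protein list had 0.07.

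Collagen itself hardly differed, whereas its folding enzymes leaned upward. Of 20 tested genes for collagen folding and cross-linking 20 had the higher mean in CM1, 3 with an unadjusted p under 0.05 (median log2 fold change 0.25). Of 20 collagen genes 15 did, with a median of 0.07 and 0 under that p. Among all tested genes 48.7% had the higher mean, and 3.37% had it with such a p. Serpinh1 (ENSMUSG00000070436, chromosome 7, 99345376 to 99353239), the chaperone HSP47 that binds procollagen, stood at 977, 978, 844 and 1358 CPM in CM1 against 659 to 1030.5 in Ctrl (median 798). Loxl3, a lysyl oxidase that cross-links collagen, stood at 47.7, 47.1, 47.9 and 63.9 CPM against 27.9 to 49.8 (median 35.6). CM1 4 was the highest of the 10 libraries for both, and the groups overlapped. Fkbp14, a prolyl isomerase of the endoplasmic reticulum, had a value of 0.35 (SE 0.14) on the log2 scale, which was 0.21 without CM1 4. Without CM1 4 the median of the folding list was 0.07 and that of the collagens -0.05, and with 2 surrogate variables the collagen folding list had 0.03. Col3a1, the collagen of young granulation tissue, stood at 28070.2, 25655, 24593 and 45663 CPM against 20844 to 32979.5.

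Other matrix genes followed CM1 4 in part. Fbln1, a fibulin that binds fibronectin and elastic fibres, stood at 104, 110.2, 114 and 108 CPM in CM1 against 78.6 to 94 in Ctrl (median 82.1), without overlap (log2 fold change 0.37, SE 0.12). Its CM1 values were even, and the fold change stayed between 0.35 and 0.40 without any 1 library. Tnc, the tenascin of wound beds, stood at 2621, 1039, 1145 and 3405 CPM against 714 to 2038 (median 975), so CM1 1 and CM1 4 carried its log2 fold change of 0.78 (SE 0.38). Of the 20 provisional matrix and matricellular genes 17 had the higher mean (median 0.31, and 0.19 without CM1 4). Mmp2, the gelatinase of fibroblasts, was highest in CM1 4 at 1713 CPM, and its log2 fold change of 0.48 (SE 0.21) became 0.24 without that library. Decorin, Dcn, had a log2 fold change of 0.39 (SE 0.19).

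The proteoglycans Acan and Omd and the growth factor Igf2 stood lower. Acan, the aggrecan of cartilage and other water-rich matrix, stood at 1.25, 4.44, 1.45 and 3.25 CPM in CM1 against 4.55 to 11.2 in Ctrl (median 7.87), without overlap (log2 fold change -1.54, SE 0.58). Igf2, a growth factor of fetal and regenerating tissue, stood at 0.114, 0.658, 0.519 and 0.784 CPM against 0.843 to 1.35, also without overlap but at low levels. Omd, osteomodulin, had a log2 fold change of -0.48 (SE 0.18). Igfbp2, which binds insulin-like growth factors, stood at 8.43, 18.3, 19.6 and 7.4 CPM against 15.6 to 65.5, with Ctrl 3 at 65.5; its log2 fold change of -1.12 was -0.72 without Ctrl 3.

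The TGF-beta and growth factor lists had small medians above 0, and the median of the YAP-TEAD list was near 0; over all tested genes the upper quartile was 0.11. Of 21 TGF-beta signalling genes 15 had the higher mean (median log2 fold change 0.15, and 0.06 without CM1 4), led by Acvrl1, a receptor of vessel walls (0.25, SE 0.09), Ltbp1, which stores latent TGF-beta in the matrix (0.45, SE 0.21), and Tgfbi, a matrix protein induced by TGF-beta (0.35, SE 0.16). Ltbp1 stood at 97.4 CPM in CM1 4 and at 54.8 to 58.4 in the other CM1 libraries, and without CM1 4 its fold change was 0.22. Of 23 PDGF, IGF and FGF genes 18 had the higher mean (median 0.18, and 0.08 without Ctrl 4), 3 of them with an unadjusted p under 0.05 against 2 with the lower mean, among them Pdgfd, a ligand for PDGF receptor beta (0.38, SE 0.17). In the YAP-TEAD axis, which couples stretch of the cell to gene expression, 10 of 17 had the higher mean (median 0.01). Within it Vgll3, a TEAD cofactor, stood at 65.1, 63.2, 71.8 and 67.8 CPM in CM1 against 51.6 to 61.4 in Ctrl without overlap, whereas the TEAD factors themselves differed in sign: Tead2 gave 0.34 (SE 0.12) and Tead1 gave -0.20 (SE 0.07) on the log2 scale.

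Genes of blood vessels lay slightly higher. Of 21 blood endothelial genes 21 had the higher mean in CM1 and 4 had an unadjusted p under 0.05, with a median log2 fold change of 0.28. Over all tested genes 48.7% had the higher mean and 3.37% had such a p in that direction. Sox18 (ENSMUSG00000046470, chromosome 2, 181669836 to 181671640), a transcription factor of endothelial development, stood at 13.9, 12.2, 9.13 and 22 CPM in CM1 against 7.29 to 11.8 in Ctrl (median 9.17). CM1 3 lay within the controls and CM1 4 far above them; the log2 fold change of 0.59 (SE 0.19) was 0.31 without CM1 4. Kdr, the main receptor for VEGF, stood at 86.1, 59, 65.5 and 88.4 CPM against 40.4 to 82.4 (median 55.5). Hey1, a Notch target of arteries, stood at 5.47, 4.11, 4.25 and 5.49 CPM against 2.57 to 4.12 (median 2.97), and the overlap was between CM1 2 at 4.11 and Ctrl 5 at 4.12. The endothelial list's mean log2 CPM was 5.29, 5.04, 5.06 and 5.43 in CM1 and 4.42 to 5.28 in Ctrl, lowest in Ctrl 3, and its median was 0.18 without Ctrl 3 and 0.13 with 2 surrogate variables. Of 11 tested lymphatic genes 4 had the higher mean (median -0.02).

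The pericyte list gave a median of 0.13 (0.04 without CM1 4), but its member Cspg4 (ENSMUSG00000032911, chromosome 9, 56865033 to 56899870), the NG2 proteoglycan, went the other way. It stood at 39.5, 51.5, 41.8 and 50.6 CPM in CM1 against 51.8 to 98.1 in Ctrl (median 66.4; log2 fold change -0.58, SE 0.18). The groups did not overlap, by a margin of 51.5 to 51.8 CPM, and without Ctrl 3, the highest control, the fold change was -0.45. Of 15 myofibroblast and smooth muscle genes 3 had the higher mean (median -0.16, and -0.09 without CM1 3). Tpm1, a tropomyosin shared with skeletal muscle, had the smallest p there, and its log2 fold change of -0.54 (SE 0.23) was -0.35 without Ctrl 4, the library richest in muscle genes.

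Inflammatory genes differed widely among the wounds of each group. The promoter of Cxcl2, which encodes a chemokine that attracts neutrophils, is shown because it holds the NF-kappa B site through which interleukin-1 and TNF are known to act. The window spans chr5:90903649-90903948 on GRCm38.p6, forward strand, and 2 overlapping matches to the site, in capitals, begin 97 bases before the RefSeq start.
Cxcl2: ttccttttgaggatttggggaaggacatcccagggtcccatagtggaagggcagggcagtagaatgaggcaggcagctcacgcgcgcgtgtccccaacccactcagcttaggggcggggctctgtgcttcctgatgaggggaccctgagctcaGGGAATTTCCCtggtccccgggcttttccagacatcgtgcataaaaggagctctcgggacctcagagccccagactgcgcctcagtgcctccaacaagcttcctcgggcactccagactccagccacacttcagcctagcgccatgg
Searched on both strands, the NF-kappa B site occurred in 9.55% of 27025 genes with a window of this length and in 4 of the 11 genes of the chemokine list with a window (Cxcl1, Cxcl2, Cxcl3 and Ccl9). Among genes with a window, the NF-kappa B site also occurred in 10 of 14 of the NF-kappa B feedback list (71.4%). It occurred in 6 of 22 of the unfolded protein and heat shock list (27.3%). The shares were 3 of 16 for the interleukin-1, TNF and interleukin-6 list (18.8%), 2 of 20 for ribosomal proteins (10%) and 2 of 23 for the cell cycle (8.7%). The ER stress response element occurred in 0 of the 11 chemokine genes, and it is rare in all genes (0.137%).

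Cxcl2 (ENSMUSG00000058427, chromosome 5, 90903871 to 90905938) stood at 7.97, 8.3, 373 and 28.9 CPM in CM1 and at 77.6, 1.17, 1.14, 0.675, 1.09 and 14.6 CPM in Ctrl 1 to Ctrl 6. CM1 3 was the highest library, but Ctrl 1 and Ctrl 6 exceeded CM1 1 and CM1 2, and the groups overlapped. The log2 fold change was 2.68 (SE 1.27), which became -0.10 without CM1 3 and 4.67 without Ctrl 1. Il1b, the cytokine interleukin-1 beta, showed a like pattern, at 19.6, 5.01, 199 and 42.4 CPM against 1.76 to 51.9 (median 3.63), as did Nlrp3, the sensor of the inflammasome that activates it, at 6.27, 4.69, 57 and 12.7 CPM against 1.22 to 17.3 (median 2.47). In each of these 3 genes all CM1 libraries lay above the control median. Without CM1 3 the log2 fold changes of Il1b and Nlrp3 were 0.33 and 0.53. Acod1, the itaconate-producing enzyme of activated macrophages, reached 83 CPM in CM1 3 and 22.9 in Ctrl 1, and its log2 fold change of 2.27 was 0.96 without CM1 3.

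Ccl4 (ENSMUSG00000018930, chromosome 11, 83662584 to 83664683), a chemokine for monocytes and T cells, was the one inflammatory gene among the 12 leading genes. It stood at 2.62, 2.47, 55.7 and 4.59 CPM in CM1 against 0.936 to 4.79 in Ctrl (median 1.35). Its log2 fold change of 2.99 (SE 0.72) was 0.65 without CM1 3, and Ctrl 1 alone made the groups overlap. Ccl3, its neighbour and close relative, had 2.06 (SE 0.67), and 0.30 without CM1 3. For Tnf the CM1 values were 3.19, 3.37, 25.1 and 5.6 CPM against 2.49 to 5.73, so apart from CM1 3 they lay within the control range, and the log2 fold change of 1.19 was -0.002 without CM1 3.

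As lists, neutrophil and chemokine genes had higher medians that rested largely on single wounds. Of 18 tested neutrophil genes 17 had the higher mean (median log2 fold change 1.03, 0.21 without CM1 3 and 1.60 without Ctrl 1), and of 15 chemokine genes 12 did (median 0.42, 0.17 without CM1 3). Without Ctrl 3, Ctrl 4 and CM1 3 together these medians were -0.08 and -0.03, and with 2 surrogate variables the neutrophil list had 0.07 and the list of neutrophil and monocyte chemokines 0.08. The neutrophil granule genes Mpo, Elane, Camp and Ltf were too low to be tested. S100a8 and S100a9 form calprotectin, which neutrophils and activated keratinocytes both make. Like Slpi, they stand on both the neutrophil and the wound-edge list. S100a8 stood at 198, 57.7, 214 and 94.8 CPM in CM1 against 8.24 to 106 in Ctrl (median 28.2). Its log2 fold change stayed at 1.37 without CM1 3, where the wound-edge keratinocyte genes were high as well.

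**Figure D4:**
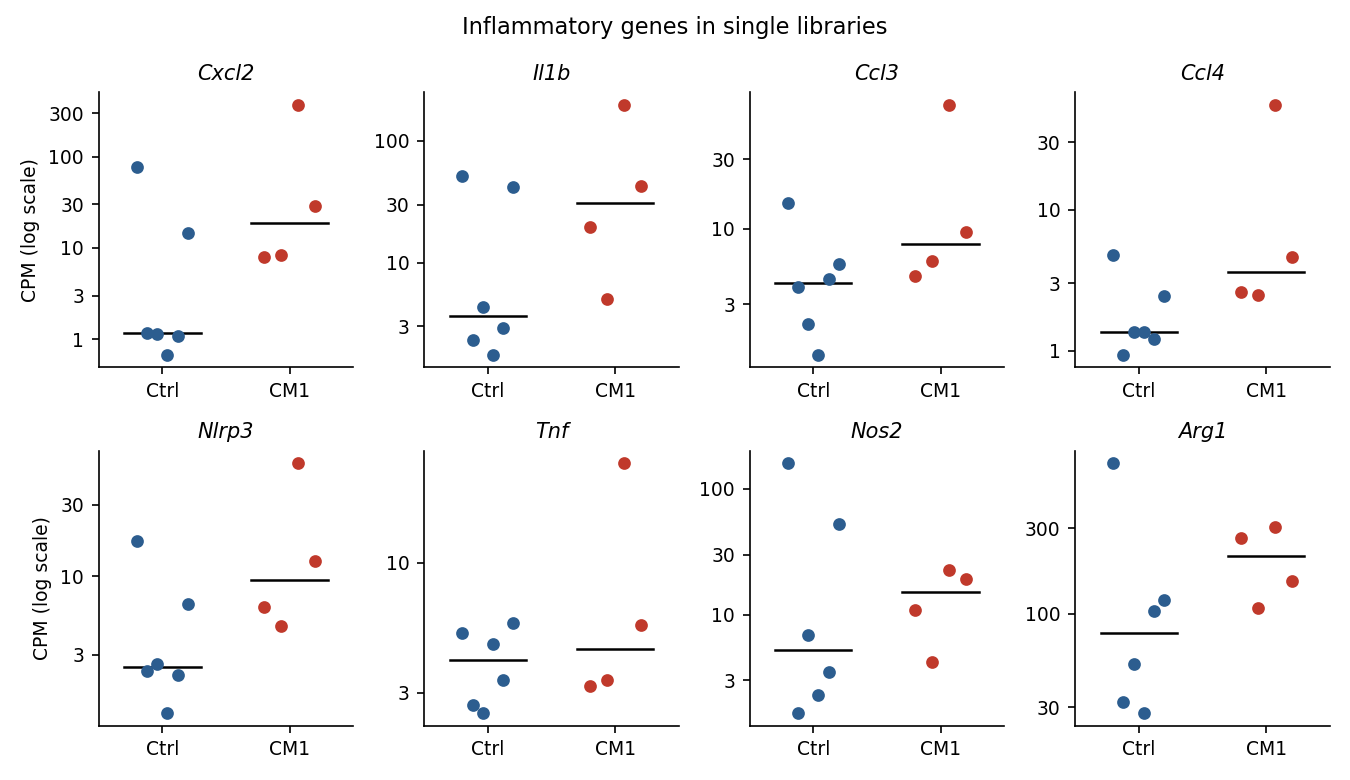
CPM on log-scaled y axes for 8 inflammatory genes in Ctrl (blue) and CM1 (red); each point is a library, ordered by replicate number from left to right, and bars mark group medians. CM1 3 is the highest point for Cxcl2, Il1b, Ccl3, Ccl4, Nlrp3 and Tnf, while Ctrl 1 is the highest for Nos2 and Arg1.

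Against the control bandage, the list of M1-type genes had a median near 0 and the list of M2-type genes a median above 0. Of 16 tested M1-type macrophage genes 6 had the higher mean in CM1 (median log2 fold change -0.07), and of 18 M2-type genes 17 did (median 0.28, but 0.01 without CM1 2). Nos2, the nitric oxide synthase of M1 cells, stood at 10.9, 4.19, 22.8 and 19.2 CPM against 1.64 to 161, with Ctrl 1 at 161 and Ctrl 6 at 52.7. The fold change on the log2 scale was -1.43 (SE 1.41), and leaving out Ctrl 1 made it 0.02. Arg1, the arginase that competes with Nos2 for arginine, stood at 265, 108, 305 and 153 CPM against 27.8 to 694 (median 78.4), again with Ctrl 1 highest. All 4 CM1 libraries exceeded the control median for Arg1, and its log2 fold change of 0.27 was 1.62 without Ctrl 1 and 0.03 without CM1 3. Cd86, a costimulatory molecule, had 0.45 (SE 0.16), and Cxcl9, an interferon-gamma target, had -0.54 (SE 0.33), which was -0.25 without Ctrl 2, -0.36 without CM1 1 and -0.91 without CM1 3. Compared directly with CM0, CMA and CMC, the M1-type list had medians of 0.25, 0.22 and 0.00, with 12, 14 and 9 of 16 genes higher in CM1. For the M2-type list they were 0.18, 0.20 and -0.11, with 16, 12 and 5 of 18 higher.

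Il6 and Il10 were low in both groups. Il6 stood at 0.519 to 1.14 CPM in CM1 and 0 to 3.71 in Ctrl, where Ctrl 1 and Ctrl 6 were the highest. Il10, an anti-inflammatory cytokine, stood at 1.48 to 1.87 CPM against 0.234 to 2.87. Il1rap, a shared subunit of the interleukin-1, interleukin-33 and interleukin-36 receptors, had a log2 fold change of 0.35 (SE 0.12), which was 0.22 without CM1 3. Of 18 NF-kappa B feedback genes 14 had the higher mean, with a median of 0.09 and 0.02 without CM1 3. Traf1, a TNF receptor adaptor, was the member with an unadjusted p under 0.05 (0.46, SE 0.20). Of 29 interferon-induced genes 3 had the higher mean (median -0.24, and -0.08 without Ctrl 4, whose mean log2 CPM of 4.54 was the highest).

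Among resident and incoming leukocytes the monocyte genes leaned upward. Of 17 tested monocyte and dendritic cell genes 15 had the higher mean, with a median log2 fold change of 0.27, and 0.18 without CM1 2. Ccr2, the receptor by which monocytes leave the bone marrow, stood at 47.1, 69.1, 39 and 58.3 CPM in CM1 against 20 to 61.3 in Ctrl (median 28.4). All CM1 libraries lay above 5 of the 6 controls, and Ctrl 6 lay within the CM1 range. Its ligands Ccl2 and Ccl12 had log2 fold changes of 0.42 (SE 0.45) and 0.83 (SE 0.39), and both were highest in CM1 2 among the CM1 libraries. Without CM1 2 these values were 0.09 and 0.36. For Ccl2 the control Ctrl 6, at 36.8 CPM, lay above every CM1 library, and the log2 fold change was 1.02 without Ctrl 6 and 0.26 without Ctrl 4. Flt3, a growth factor receptor of dendritic cell precursors, had 0.61 (SE 0.24).

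Mature macrophage genes were level. Of 20 tested members 14 had the higher mean, with a median of 0.06, and -0.03 without CM1 2. Adgre1, the F4/80 antigen, stood at 175, 204, 164 and 189 CPM in CM1 against 122 to 267 in Ctrl (median 174), and the log2 fold change was 0.03 (SE 0.21). Mrc1, the mannose receptor, had 0.13 (SE 0.20), and C1qa, which starts the classical complement pathway, 0.31 (SE 0.16). H2-Eb1, an MHC class II chain, had 0.30 (SE 0.13), and 0.19 without Ctrl 3; its list's median of 0.10 was -0.05 without Ctrl 3 and -0.03 without CM1 2. T and NK cell genes (9 of 17 higher, median 0.03) and mast cell genes (6 of 11, median 0.08) were spread around 0. The B cell markers Cd79a and Ms4a1 were too low to be tested, and Cd79b stood at 0.904 to 1.57 CPM against 1.26 to 2.22.

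Genes of the activated epidermis also had large fold changes. At a wound edge keratinocytes switch on the keratins Krt6a and Krt16, alarmins and protease inhibitors as they crawl under the scab. Of 22 tested wound-edge genes 20 had the higher mean in CM1 (median log2 fold change 0.87), and 4 had an unadjusted p under 0.05 in that direction. The shares over all tested genes were 48.7% and 3.37%. Krt16 stood at 1178, 630.4, 1596 and 1047 CPM in CM1 against 185 to 1532 in Ctrl (median 522). Krt6a stood at 1121, 424, 1019 and 816 CPM against 90.8 to 1309 (median 368). All CM1 libraries exceeded the control median for both keratins, and Ctrl 1 lay among the highest of the 10. The list's median was 0.70 without CM1 3, 1.36 without Ctrl 1 and 0.50 without Ctrl 3, Ctrl 4 and CM1 3, and with 2 surrogate variables the wound-edge keratinocyte list had 0.16.

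Cytoplasmic protease inhibitors also had a median above 0. Stfa1, Stfa2, Stfa3 and Serpinb3a stand on the wound-edge list as well, so the lists are not separate results. Of 13 tested stefin A and serpin B genes 11 had the higher mean (median log2 fold change 1.01, 0.45 without CM1 3 and 0.28 without Ctrl 3, Ctrl 4 and CM1 3). Stfa2 stood at 18.9, 10.7, 63.9 and 10.3 CPM in CM1 against 1.76 to 17.6 in Ctrl (median 3.75), and its log2 fold change of 2.11 was 1.14 without CM1 3. Serpinb12 and BC100530, another stefin gene, had log2 fold changes of 1.09 (SE 0.44) and 1.44 (SE 0.61). BC100530 reached 329.9 CPM in CM1 3, and its fold change was 0.92 without that library. These families consist of near-identical copies, so the split of reads among them is uncertain. The interleukin-36 family, whose cytokines keratinocytes release as alarms, was higher in mean in 5 of 5 genes, with the receptor Il1rl2 at a log2 fold change of 0.07. Il1f9 (interleukin-36 gamma) stood at 42.7, 27.5, 50.5 and 26.4 CPM against 10.7 to 39.3 (median 17.3). Il1f6 (interleukin-36 alpha) and the receptor antagonist Il1f5 had 0.82 (SE 0.48) and 0.72 (SE 0.37). Without CM1 3 Il1f6 had 0.50 and Il1f5 0.43. The list median was 0.72, and 0.43 without CM1 3.

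Undisturbed epidermis gave smaller medians, 0.14 for 18 basal and 0.24 for 25 cornified keratinocyte genes. The basal median was 0.02 without CM1 1, 0.04 without CM1 3 and 0.06 without Ctrl 6, and the cornified median was 0.03 without CM1 3 and 0.09 without Ctrl 6. Krt2, the keratin of mature suprabasal skin, stood lower, at 28.5, 15, 55 and 9.19 CPM in CM1 against 38.4 to 139 in Ctrl (median 62.4; log2 fold change -1.44, SE 0.51). All CM1 values lay below the control median, and only CM1 3 reached into the control range. Epgn, a ligand of the EGF receptor, had -1.04 (SE 0.41), whereas its family as a whole had a median of 0.04. Krt75, a companion layer keratin of the hair follicle that was placed on the wound-edge list, reached 261 CPM in Ctrl 3 and lay at 2.36 to 25.9 in the other controls; its log2 fold change of -3.44 was -0.75 without Ctrl 3.

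Most transcripts of the mitochondrial genome had the lower mean in CM1. Of 11 tested 1 had the higher mean and 6 had an unadjusted p under 0.05, all lower (median log2 fold change -0.33, between -0.37 and -0.24 without any 1 library). The smallest log2 fold changes were those of mt-Co3 (0.03), mt-Co1 (-0.12), mt-Atp6 (-0.15) and mt-Co2 (-0.19). Over all tested genes 48.7% had the higher mean and 3.68% had such a p with the lower mean. The list's mean log2 CPM was 6.10, 6.23, 6.08 and 6.23 in CM1 and 6.27 to 6.66 in Ctrl, so that every CM1 library lay below every control. Of the 54 lists this was the 1 whose scores did not overlap, by a margin of 6.23 to 6.27. With 54 lists and 210 possible divisions of the 10 libraries, 1 such list can arise without any difference between the groups. Of its 11 tested members 1 had all CM1 libraries below all controls, and 0.648% of all tested genes did. Within it mt-Cytb, a subunit of complex III, stood at 571, 574, 543 and 590.3 CPM against 604 to 846 (median 673), and mt-Nd5, of complex I, at 434, 443, 356 and 469 CPM against 425 to 679 (median 528). The controls with most mitochondrial RNA, Ctrl 2 and Ctrl 4, were also those with most skeletal muscle RNA, a tissue rich in mitochondria, and its part in the result was not tested. Without Ctrl 3, Ctrl 4 and CM1 3 the median was -0.22, and with 2 surrogate variables the mitochondrially encoded list had -0.13.

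Twnk (ENSMUSG00000025209, chromosome 19, 45005663 to 45012762), the helicase that unwinds mitochondrial DNA for copying, was among the leading genes with lower values. It stood at 10.5, 9.7, 10.8 and 9.64 CPM in CM1 against 10.3 to 16.1 in Ctrl (median 14.5; log2 fold change -0.46, SE 0.12). Ctrl 6 at 10.3 was the single control within the CM1 range. The subunits of the respiratory chain that are encoded in the nucleus had a median of -0.01, with 10 of 28 higher. Cytosolic ribosomal proteins, by contrast, were higher in mean in 28 of 28, by small amounts (median 0.16, and 0.10 without CM1 3; Rpl18 0.23, SE 0.10, and 0.14 without CM1 3), and their reads can be shared with processed pseudogenes. Fold changes also differed slightly with exon length: the median was 0.045 in the shortest of 5 equal classes of genes and -0.018 in the longest.

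**Figure D5:**
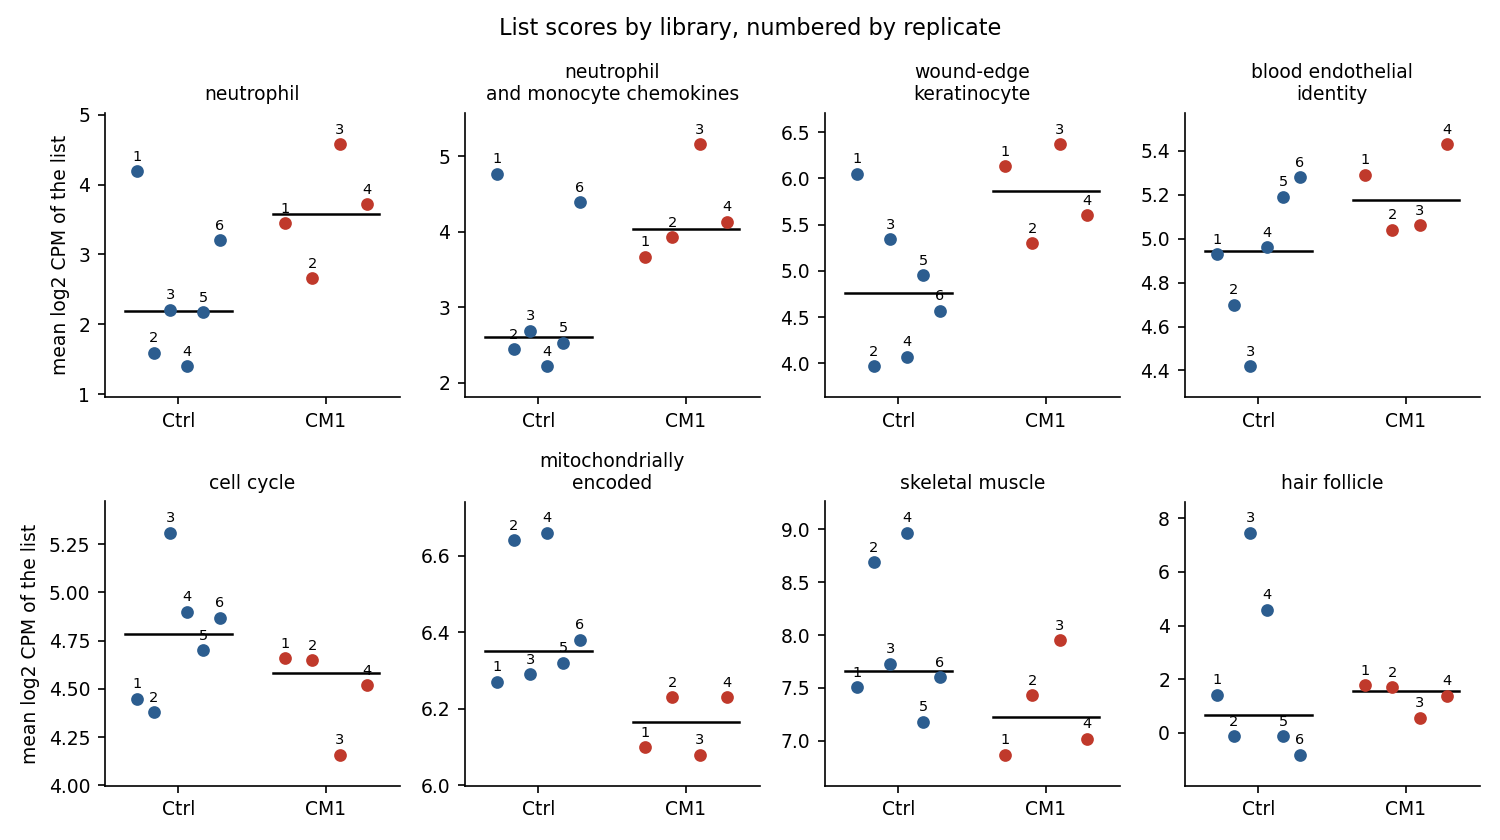
Mean log2 CPM of 8 gene lists (y axes, each with its own range) in the Ctrl (blue) and CM1 (red) libraries; numbers are replicates and bars are group medians. The mitochondrially encoded list separates the groups, while Ctrl 1 sits with CM1 in the neutrophil, chemokine and wound-edge lists, and Ctrl 3 and Ctrl 4 stand apart in hair follicle genes.

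Stress and clock lists had medians between 0.04 and 0.11. Medians were 0.06 for 24 hypoxia and glycolysis genes, 0.04 for 21 NRF2 and oxidative stress genes, 0.07 for 17 glucocorticoid-responsive genes, 0.04 for 19 insulin signalling genes and 0.06 for 22 immediate early genes. Without CM1 3 the hypoxia, glucocorticoid and immediate early medians were -0.05, -0.07 and -0.10. For the clock list the median was 0.11, with 13 of 19 higher, and 0.04 without CM1 3. Its activator Arntl stood at 21.8, 20.5, 20.6 and 19.4 CPM in CM1 against 21.6 to 27.7 in Ctrl (median 24.5), and for its repressor Nr1d2, which acts on Arntl, the value on the log2 scale was 0.19 (SE 0.09; 0.12 without CM1 3). Ptges, the inducible prostaglandin E synthase, had 0.41 (SE 0.19).

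Markers of other tissue in the sample differed among the wounds of each group, and the list scores of CM1 and Ctrl overlapped. Skeletal muscle genes had the lower mean in 23 of 23 (median log2 fold change -0.73), with mean log2 CPM of 6.87 to 7.95 in CM1 and 7.18 to 8.97 in Ctrl; the median was -0.48 without Ctrl 4, -1.03 without CM1 3 and -0.78 without Ctrl 3, Ctrl 4 and CM1 3, and with 2 surrogate variables the skeletal muscle list had 0.01. Casq1, the calcium store protein of muscle, reached 286 CPM in Ctrl 4 and 146 in Ctrl 2, against 34.5 to 71.6 in CM1. Hair follicle genes had a median of -4.04, which was -1.60 without Ctrl 3 and 1.30 without Ctrl 3, Ctrl 4 and CM1 3: Krt83, a hair shaft keratin, stood at 231 CPM in Ctrl 3, 6.89 CPM in Ctrl 4 and at 0 to 0.56 in all other libraries of the comparison. Hoxc13, which switches on hair keratins, and the pigment enzyme Tyrp1 had the same pattern, with 38.8 and 98.1 CPM in Ctrl 3. Ptgds, a prostaglandin D synthase, reached 18.3 CPM in Ctrl 3 and lay at 0.312 to 3.65 in the other libraries. Fat cell and sebaceous gland lists had medians of 0.14 and 0.06, which depended on single wounds: the fat cell median was -0.15 without CM1 2 and 0.37 without CM1 4, and the sebaceous median -0.06 without CM1 3.

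Against the other media, which were given on the same bandage and also carried macrophage products, edgeR called 0 genes in each comparison. At an unadjusted p under 0.05 there were 422 against CM0 (2.22%), 759 against CMA (4%) and 514 against CMC (2.71%). DESeq2, over its 38663 genes, called 0 in each, with 569, 915 and 706 at that p. Limma, over 18978 genes, also called 0 in each, with 687, 738 and 760. Fibin had means of 43 ± 17.1 CPM in CM1 (SD, n = 4), 37.3 ± 9.78 in CM0 (n = 4), 19.8 ± 7.29 in CMA (n = 5) and 28.7 ± 5.14 in CMC (n = 5). It was the gene with the smallest p against CMA, with a log2 difference of 1.11 (SE 0.26), and differed by 0.20 (SE 0.27) from CM0. Ccl4 came next against CMA (3.48, SE 0.81), again through CM1 3.

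The other leading genes of these comparisons had small differences. Against CM0 they were Nhej1, a DNA end-joining factor, at 2.76 ± 0.515 against 1.6 ± 0.25 CPM, the proteasome activator Psme2 at 50.3 ± 5.25 against 40.9 ± 1.69, and Gm9989 at 1.42 ± 0.64 against 0.489 ± 0.123 (SD, n = 4 each). Against CMA Zfp870, a zinc finger protein, stood at 11.8 ± 1.83 against 8.1 ± 0.773 CPM (SD, n = 4 and 5). Against CMC they were the heat shock co-chaperone Dnajb4 at 35.5 ± 2.56 against 45.3 ± 1.81, Wee1, a kinase that holds back mitosis, at 23.7 ± 3.63 against 36.1 ± 5.21, and Pdzd4 at 21.4 ± 1.14 against 16.5 ± 1.16 CPM (SD, n = 4 and 5).

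Set beside Ctrl, the other media share the same control libraries as CM1, so only the values are given. The endothelial list's median log2 fold change was 0.28 in CM1, 0.10 in CM0, -0.19 in CMA and 0.04 in CMC. The mitochondrially encoded list had -0.33 in CM1, -0.03 in CM0, -0.17 in CMA and -0.01 in CMC. The chemokine list had 0.42 in CM1, -0.16 in CM0, -0.49 in CMA and 0.15 in CMC, whereas the wound-edge list had 0.87, 0.66, 1.02 and 0.62 in the same order. For Vgll3 the log2 fold changes were 0.24 in CM1, 0.40 in CM0, 0.27 in CMA and 0.24 in CMC. Compared directly, without the controls, the endothelial median was 0.14 against CM0, 0.42 against CMA and 0.24 against CMC, and that of the mitochondrially encoded list was -0.23, -0.09 and -0.26.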

How the data were processed

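RNA of the wounds was measured by sequencing after removal of ribosomal RNA. The authors deposited unnormalised counts for 54232 genes in each library, made with bcl2fastq 2.17, cutadapt, STAR (build GRCm38) and featureCounts per the submitters' processing notes, with an annotation release not given in the sources used here. Per the labels' protocols the kit was NEBNext Ultra, which does not mark strand, so overlapping genes on opposite strands share reads. GENCODE M21 supplied the symbols and the GRCm38 coordinates.

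Genes passing filterByExpr (18978) were fitted in R 4.3.3 with the robust quasi-likelihood test of edgeR 4.0.16, TMM scaling, all 24 libraries and 1 term per group, and Benjamini-Hochberg adjustment at 0.05. The fit was tested on simulated data. CPM are TMM-scaled. Alternatives were DESeq2 1.42.0, limma 3.58.1 (voom, sample quality weights), other scaling and filters, 2 surrogate variables (sva 3.50.0) and left-out libraries. List scores are mean log2 CPM (prior count 2), and lists were not tested as sets.

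Named genes are the 12 protein-coding genes with the smallest p in each direction averaging at least 1 CPM, members among the 3 with the smallest p of each of 54 lists, a panel, genes called by any tool, and the 3 with the smallest p against each other medium. Groups and lists (911 different genes tested) were chosen with earlier results of these data known. Replicate numbers follow accession order and are names only. A few genes are not reported here.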

Additional observations from a re-analysis of the deposited data

Results flagged for a closer look

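Among 220 sets of 4 or 6 libraries examined for the genes named above, 15 had a library whose distance from its nearest neighbour, relative to the whole range, exceeded Dixon's 95% critical value, and chance flags about 1 in 20 such sets. The distances were not taken on the CPM scale, although the flagged values are printed in CPM. A library without a flag can still carry a result, as CM1 3 did for Cxcl2 and Ccl4 and Ctrl 3 for Krt83. In Ctrl 6 the macrophage genes Mrc1 (554 CPM) and C1qa (212 CPM) were far above the other controls, and Twnk (10.3 CPM) far below them. In Ctrl 1 Greb1l was far above the other controls at 16.7 CPM, and Ddx55 (14.4 CPM) and Tead1 (110.2 CPM) were far below. Single low values were Tsen34 in Ctrl 4 (37.5 CPM), H2-Eb1 in Ctrl 3 (81.4 CPM) and Epgn in Ctrl 2 (1.64 CPM). In CM1 4 the matrix genes Loxl3 (63.9 CPM) and Ltbp1 (97.4 CPM) were far above the other CM1 libraries and H2-Eb1 (123 CPM) far below. Ddx3y (92 CPM) and Wee1 (29.2 CPM) in CM1 3 and Nhej1 in CM1 1 (3.53 CPM) were high.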

How the results depend on the processing

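DESeq2 called 1 gene, Fibin, and every other alternative run called 0 in CM1 against Ctrl. Genes at an unadjusted p under 0.05, 1337 in the fit reported, were 2080 with no filter, 795 with 2 surrogate variables, 711 without Ctrl 3, Ctrl 4 and CM1 3 together, and 930 to 1888 when any 1 library was left out. With no filter more genes were tested, so counts under that setting are not shares of the same total. Genes with all CM1 libraries above all controls (86) were 131 with no filter, 417 without those 3 libraries and 110 to 243 without any 1; those below (123) were 497 and 161 to 295, since fewer libraries need to be apart.

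Of 1976 fold changes of 110 named genes under these alternatives 1946 kept direction and side of the threshold and 29, in 17 genes, reversed; the cause was not tested. Of 972 list medians 25 moved beyond the spread of libraries. With surrogate variables the medians were 0.34 for stefins and serpins, -0.13 for mitochondrial transcripts and 0.01 for skeletal muscle. Without Ctrl 3, Ctrl 4 and CM1 3 the reversed log2 fold changes were -0.11 for Ccl3, -0.66 for Cxcl2, -0.09 for Tnf, -0.18 for Il1b, -0.44 for Arg1, 0.32 for Krt75, 0.65 for Ptgds, 1.04 for Hoxc13, 1.30 for Krt83, 0.29 for Tyrp1 and -0.10 for Wee1. With surrogate variables Arg1 was -0.47, Krt6a -0.01, Krt75 0.07, Col1a1 -0.03, Ptgds 0.10, Hoxc13 0.18 and Wee1 -0.0025. With limma Nos2 was 0.33 and Il6 0.30. When any 1 library was left out, the values ran from -0.10 to 4.67 for Cxcl2, -0.002 to 1.47 for Tnf, -1.75 to 0.02 for Nos2, -0.06 to 0.17 for Adgre1, -0.03 to 0.28 for Mrc1, -0.11 to 0.24 for Col1a1 and -0.05 to 0.11 for Wee1; the reversals came without CM1 3 (Cxcl2, Tnf, Wee1), Ctrl 1 (Nos2, Adgre1), Ctrl 3 (Adgre1), CM1 2 (Adgre1, Mrc1) and CM1 4 (Col1a1). No paired analysis was possible because the labels give no replicate numbers. Depth limits the genes near 1 CPM most, such as Igf2, Il6 and Sprr2b, whose 95% interval ran from 1.46 to 5.05 on the log2 scale.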
